A study of Mus musculus with 9 samples.

Results

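Mouse ES cells starved of Thr were compared directly with the same cells starved of Cys, gene by gene, to find which pathways set the 2 starvations apart. The comparison takes 6 of the 9 libraries of the experiment, 3 from Thr-starved and 3 from Cys-starved cells, and all genes of the deposited count table. The cells were wild-type E14 cells, an established pluripotent line from mouse embryos, grown on gelatin with serum and LIF, and they were starved for 3 h. The other 3 libraries came from unstarved wild-type E14 cells. They did not enter the test, and their levels are given only to show where a gene stood in full medium. Both starvations were profiled in the study to ask whether they call up the response seen when other amino acids, such as Arg or Leu, are withdrawn. No genotype other than wild type was used in these 9 libraries. The labels and methods describe a starvation medium for Arg and Leu with 5% dialyzed serum and LIF. The methods also describe a Cys-free DMEM with dialyzed serum for a cell death assay. Neither source states which Thr-free and Cys-free media these libraries had, or whether the 3 libraries of a group came from separate cultures. The p-values therefore measure only the spread between these libraries, which may be technical.

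Thr is an essential amino acid that mouse ES cells also break down, through the mitochondrial enzyme threonine dehydrogenase (Tdh), to feed glycine cleavage, folate one-carbon metabolism and the supply of S-adenosylmethionine, the methyl donor. Cys is the limiting building block of glutathione, the main thiol that protects lipids from peroxidation, and of iron-sulfur clusters and coenzyme A. Any missing amino acid can leave tRNAs uncharged, which activates the kinase GCN2, slows translation initiation and raises ATF4, the transcription factor of the integrated stress response (ISR). The ISR can thus answer either starvation, whereas Thr breakdown concerns the one amino acid and glutathione synthesis the other.

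Expression is given as CPM, a gene's counts relative to the total of its library, with TMM factors, which correct for the composition of a library. Differences are log2 fold changes of Thr-starved over Cys-starved libraries with their standard error (SE), so that a positive value means a higher level with Thr starvation. They were tested with edgeR's quasi-likelihood F test, and all p-values are Benjamini-Hochberg adjusted over the 20140 genes with at least 1 count in the 6 libraries. A gene was called at an adjusted p of 0.05 or less. Total counts were 48763102 to 74962733 in the Thr-starved and 57700492 to 62657358 in the Cys-starved libraries. Even values made up 67.7% of the counts from 1 to 20, so both reads of a pair may have been counted, and the totals may then exceed the number of sequenced fragments. Replicates lay close together, with a biological coefficient of variation of 3.45%. The first principal component of the 11412 genes that averaged 5 CPM or more held 95.4% of the variance and placed the Thr-starved libraries at 26.5 to 27.2 and the Cys-starved libraries at -27.0 to -26.5. With so little spread, small differences are called, and sizes are more informative here than the call itself.

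The cells carried their labelled identity in both groups. All 10 ES cell markers were above 5 CPM, and their summed level was 4681 to 4773 CPM in the Thr-starved and 4293 to 4352 CPM in the Cys-starved libraries. Of 12 fibroblast and feeder markers, 8 were tested and none reached a mean of 5 CPM, with sums of 12.4 to 13.3 and 16.8 to 20.1 CPM. Dcn, Lum, Postn and S100a4 were not among the genes tested. The trophoblast, endoderm and neural markers summed to 98.3 to 100.3 CPM with Thr and 221 to 226 CPM with Cys starvation, and most of that difference was in Tubb3, a neuronal β-tubulin, at 60.4, 60.2 and 62 CPM with Thr starvation and 182, 184 and 178 CPM with Cys starvation. The part of other cell types in the differences between groups was not tested beyond these levels.

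Of the 20140 genes, 12463 were called (61.9%). With Thr starvation 6183 genes were higher (30.7%) and 6280 lower (31.2%). Calls of at least 2-fold leaned to one side, with 762 genes higher (3.78%) and 1541 lower (7.65%) in Thr-starved than in Cys-starved cells. Among genes of at least 5 CPM the lean was smaller, with 303 higher and 408 lower. The 3 libraries of one group did not overlap those of the other for 13267 genes (65.9%). The median size of the difference among called genes was 0.47 on the log2 scale, and the median over all genes was -0.01. These shares of 30.7% and 31.2% are the background for the counts of gene lists. Calls were more frequent among genes of at least 5 CPM, where 2227 of 11412 were not called. Lists made up largely of such genes exceed these shares more easily. The median log2 fold change of genes of at least 5 CPM was 0.05, so list medians near that value lie at their level. Shares called higher and lower among genes of at least 5 CPM are not given here. A lower level in such bulk RNA can come from fewer cells of a kind or from less RNA per cell, which cannot be told apart.

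**Figure D1:**
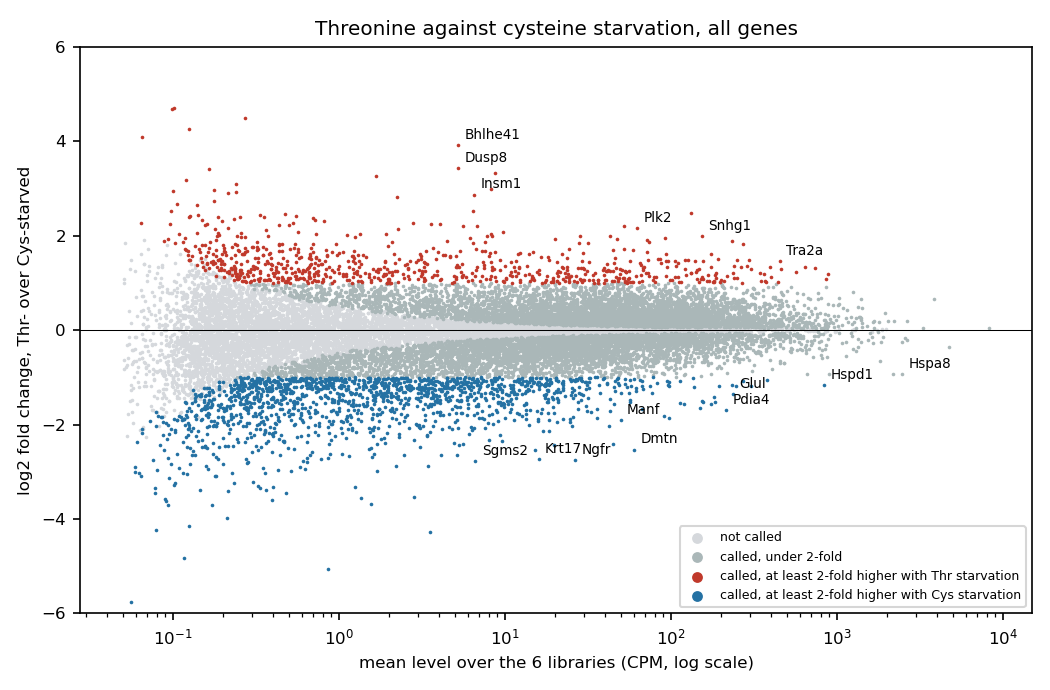
Log2 fold change of Thr-starved over Cys-starved libraries against the mean level in CPM (log axis), 1 point per gene for 20022 genes, with genes called at least 2-fold coloured by direction. Among 762 genes that were at least 2-fold higher with Thr starvation and 1541 that were lower, 303 and 408 lie at 5 CPM or more, and Dusp8 and Dmtn mark the 2 directions among genes of more than 5 CPM.

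The base composition of transcripts moved with the difference. Among genes of at least 5 CPM, the median log2 fold change was 0.22 in the lowest of 10 equal bins of GC content and -0.20 in the highest. In the lowest bin 50 genes were at least 2-fold higher with Thr starvation and 6 lower, and in the highest bin 34 were higher and 117 lower. The 303 genes of at least 5 CPM that were at least 2-fold higher had a median GC content of 46.8%, and the 408 lower ones 54.4%, beside 49.3% for all such genes. Whether this trend arose in the cells or in the preparation of the libraries cannot be told apart from these files. The fit was therefore repeated with GC content and transcript length of the genes fitted and taken out within each library. Where this turned a list median printed in the text, or moved it by more than 1.5 times, the corrected median is given too. It is also given for some other lists. Scaling by library totals alone shifted the median of all genes from -0.01 to -0.10, and the median under it is given in the same way. Of 63 gene lists, 15 had a median of the opposite sign after the correction.

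**Figure D2:**
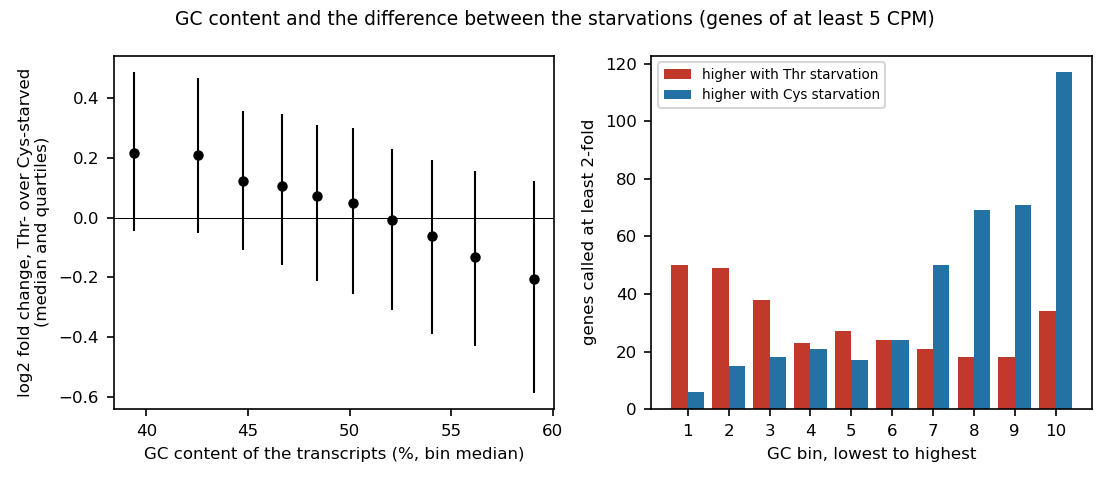
Left, median log2 fold change of Thr-starved over Cys-starved libraries (points) with quartiles (bars) in 10 equal bins of transcript GC content in percent, for genes of at least 5 CPM. Right, number of genes called at least 2-fold in each bin, where genes higher with Thr starvation numbered 50 in the lowest bin and 34 in the highest and genes higher with Cys starvation 6 and 117.

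Among genes of at least 5 CPM, the 10 largest differences in each direction included the following genes. Dusp8 (chr7:142079490-142095843 on GRCm38, reverse strand), a dual specificity phosphatase that switches off the stress kinases JNK and p38, was at 9.86, 10.4 and 8.62 CPM in the Thr-starved libraries and 0.925, 0.868 and 0.875 CPM in the Cys-starved libraries. The groups did not overlap, and unstarved cells were lower still, at 0.329 ± 0.124 CPM (SD, n = 3). The log2 fold change was 3.43 (adjusted p = 5.61e-14, SE 0.12). Insm1 (chr2:146221921-146225020), a zinc finger repressor with a role in neuroendocrine differentiation, was at 11.8, 11.8 and 11.1 CPM in the Thr-starved libraries and 1.24, 1.89 and 1.58 CPM in the Cys-starved libraries, a difference of 2.87 (adjusted p = 2.44e-13, SE 0.11). Zeb2, a repressor of E-cadherin, and Atp12a, a proton pump, were also among the 10 largest, with log2 fold changes of 2.20 and 2.52.

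Among the 10 genes furthest on the other side, Sgms2 (chr3:131318985-131491411), a sphingomyelin synthase, was at 1.33, 1.94 and 1.77 CPM in the Thr-starved libraries and 11.9, 11.7 and 11.3 CPM in the Cys-starved libraries, a log2 fold change of -2.78 (adjusted p = 1.51e-13, SE 0.10). Ngfr (chr11:95568818-95587735), the low affinity neurotrophin receptor, was at 5.89, 7.30 and 7.41 CPM in the Thr-starved libraries and 47, 47.1 and 45.1 CPM in the Cys-starved libraries, a difference of -2.75 (adjusted p = 2.25e-16, SE 0.062). Neither pair of groups overlapped. The actin-binding protein Dmtn was at 18.6, 18 and 16.9 CPM with Thr starvation and 103, 106 and 98.9 CPM with Cys starvation, a log2 fold change of -2.53, and the glycosyltransferase Mgat3 stood at -2.40. Krt17, a keratin, was lower, at a log2 fold change of -2.72. The adhesion molecules Ceacam1 and Ceacam2 were at -2.55 and -2.65, but they are close paralogs and reads may have been split between them.

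Jun, Fos and their relatives form AP-1, a transcription factor induced within minutes by stress kinases. Of 31 AP-1 and immediate early genes tested, 17 were higher and 10 lower with Thr starvation (median 0.39), and after the GC and length correction 19 were higher and 8 lower (median 0.66). Jun (chr4:95049034-95052222) was at 46.5, 44.9 and 44.9 CPM in the Thr-starved libraries and 11.1, 11.8 and 11.3 CPM in the Cys-starved libraries. Its log2 fold change was 1.99 (adjusted p = 2.02e-16, SE 0.045), and unstarved cells were at 6.04 ± 0.676 CPM (SD, n = 3). Junb, a further AP-1 member, followed at 93.6, 97.9 and 101 CPM with Thr starvation and 40.0, 40.5 and 36.9 CPM with Cys starvation, and the growth arrest genes Btg1 and Btg2 were higher by log2 fold changes of 1.24 and 1.13. Klf6, a zinc finger factor, was higher by 1.21. The orphan nuclear receptor Nr4a1 went the other way, at 19.6, 22.1 and 22.7 CPM in the Thr-starved libraries and 53, 57.3 and 51.6 CPM in the Cys-starved libraries, a log2 fold change of -1.32 (adjusted p = 3.37e-13, SE 0.052). Srf, the serum response factor that drives many immediate early genes, was also lower, at -0.49, so the class split by member.

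Phosphatases and feedback inhibitors of the ERK pathway also divided. Of 24 genes, 11 were higher and 9 lower, with a median of -0.06 that became 0.23 after the correction, -0.15 with library totals and -0.02 with the deposited size factors. Besides Dusp8, the JNK and p38 phosphatases Dusp10, Dusp16 and Dusp1 were higher with Thr starvation, by log2 fold changes of 1.56, 1.15 and 0.89. The ERK phosphatases Dusp6 and Dusp4 were higher by 0.71 and 0.98. Dusp5, which acts on nuclear ERK, and Dusp7 were lower, at -0.32 and -0.65. The FGF receptor Fgfr2, whose annotation overlaps Ctbp2 on the same strand, was higher by 1.61, whereas the ERK-responsive factor Etv5 was lower, at -0.75.

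The cAMP response element TGACGTCA, to which ATF and Jun family proteins can bind, was searched on both strands in promoter windows of 300 bases from RefSeq (GRCm38.p6), reaching from 250 bases before to 50 after each start, which were found for 12166 of 20128 tested genes with a symbol. It was present in 2.82% of all 15462 windows of tested genes, in 4.31% of windows of genes at least 2-fold higher with Thr starvation and in 1.02% of those at least 2-fold lower. The next 2 stretches of 100 bases, from Dusp8 (chr7:142095335-142095434, reverse strand) and Plk2 (chr13:110394944-110395043, forward strand), are shown because both genes were among the largest differences, with the element in capitals.
Dusp8: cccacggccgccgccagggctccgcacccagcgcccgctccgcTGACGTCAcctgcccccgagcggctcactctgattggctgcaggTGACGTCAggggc
Plk2: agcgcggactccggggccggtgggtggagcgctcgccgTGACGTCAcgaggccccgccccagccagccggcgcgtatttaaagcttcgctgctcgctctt
Dusp8 holds the element at 2 places and Plk2 at 1. A match is a description of these letters and neither shows binding nor gives a cause, and matches of different elements can overlap.

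p53 is the transcription factor of the DNA damage and nucleolar stress checkpoint, and Mdm2 is both its target and the ligase that degrades it. Of 32 p53 pathway genes tested, 22 were higher and 7 lower with Thr starvation (median 0.63, or 0.76 after correction). Plk2 (chr13:110395046-110400844), a polo-like kinase, was at 103, 101 and 102 CPM in the Thr-starved libraries and 22.7, 22.6 and 23.4 CPM in the Cys-starved libraries, a log2 fold change of 2.16 (adjusted p = 2.75e-18, SE 0.032). The Cys-starved libraries were below the unstarved ones, which were at 28.4 ± 1.28 CPM (SD, n = 3), and the Thr-starved libraries were above both. Mdm2 was at 264, 266 and 260.2 CPM in the Thr-starved libraries and 85.3, 86.4 and 86.6 CPM in the Cys-starved libraries, a difference of 1.61 (adjusted p = 2.75e-18, SE 0.024). Eda2r, a death receptor of the TNF receptor family, was at 126, 128 and 129.8 CPM with Thr starvation and 49.6, 47 and 46.8 CPM with Cys starvation. Trp53inp1, Phlda3 and Ccng1, which modulate p53, Akt and the cell cycle, were higher by 1.51, 1.39 and 1.35. Trp53 itself was at 553, 559 and 551 CPM with Thr starvation and 389.9, 391 and 386 CPM with Cys starvation, a smaller difference of 0.51.

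Not every p53 target followed. Xpc, a DNA repair factor, and Sesn1, a stress-inducible inhibitor of mTORC1, were lower at -0.82 and -0.71. Bax, the pore-forming apoptosis gene, had a log2 fold change of 0.01 and was not called (adjusted p = 0.652 from edgeR's test). The BCL2 family split by member, with 3 of 15 higher and 7 lower, and its median of -0.25 turned to 0.04 after correction. The BH3-only death genes Pmaip1 (Noxa) and Bbc3 (Puma), both p53 targets, were higher by 1.15 and 0.86. Mcl1, the pro-survival member that Noxa antagonizes, was higher too, at 530.2, 535 and 549 CPM in the Thr-starved libraries and 285, 286 and 279.6 CPM in the Cys-starved libraries, a log2 fold change of 0.92 (adjusted p = 2.51e-16, SE 0.021). The BH3-only genes Bmf and Bcl2l11 (Bim) were lower, at -1.57 and -0.92. A list named for the GADD45 family, small stress sensors of the growth arrest response, held 4 genes, not all of which need be such sensors. All 4 were higher with Thr starvation, by 0.18 to 3.34, and 3 of them by at least 2-fold.

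LIF acts through its receptor Lifr and the shared subunit Il6st to activate STAT3, which maintains naive pluripotency and induces its own feedback inhibitors. Of 18 genes of this pathway, 12 were higher and 4 lower with Thr starvation (median 0.37). Stat3 was at 346, 355 and 339.9 CPM in the Thr-starved libraries and 135, 135 and 135 CPM in the Cys-starved libraries, a log2 fold change of 1.36 (adjusted p = 1.03e-17, SE 0.024). The groups were separated by more than the range within either, and the receptor genes Lifr and Il6st were higher by 1.14 and 0.48. Among STAT3 targets, the kinase gene Pim1 was at 159, 165 and 163 CPM with Thr starvation and 62.9, 61.3 and 57.4 CPM with Cys starvation, and Klf4 and Tfcp2l1, both naive pluripotency factors, were higher by 0.79 and 0.44. Socs3, the feedback inhibitor that STAT3 induces, was higher by 1.83. Gbx2, another STAT3 target, was lower, at -1.07.

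The naive pluripotency list, which shares some of these genes, had 17 of 28 members higher and 7 lower (median 0.22, 0.14 with library totals). Tbx3, a T-box factor that sustains self-renewal, was at 127, 129 and 127 CPM in the Thr-starved libraries and 45.1, 44.5 and 45.5 CPM in the Cys-starved libraries, a log2 fold change of 1.5 (adjusted p = 2.18e-17, SE 0.028). Klf5, Sox2 and Lin28a were higher by 0.86, 0.64 and 0.81. Other core members differed little or stood on the other side. Pou5f1 (Oct4) was -0.04 (adjusted p = 0.0493 from edgeR's test, but 0.18 and called higher after correction, and just above 0 with the deposited size factors), and Nanog was lower at -0.30. Utf1, a chromatin factor of pluripotent cells, was at 95.6, 97.7 and 93.9 CPM in the Thr-starved libraries and 278, 283 and 267 CPM in the Cys-starved libraries, a log2 fold change of -1.53 (adjusted p = 1.54e-17, SE 0.028). Myc, a STAT3 target and growth regulator, was at 32.9, 37 and 35.6 CPM with Thr starvation and 72.2, 71.9 and 70.6 CPM with Cys starvation, a difference of -1.02, while its relative Mycn was -0.05 and not called (0.14 and called higher after correction).

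Genes of the formative and primed states, which cells enter as they leave naive pluripotency, were mixed, with 7 of 20 higher and 10 lower (median -0.20, -0.06 after correction). The basic helix-loop-helix factor Tcf15 was lower with Thr starvation at -2.44. The POU factor Pou3f1 (Oct6), the forkhead factor Foxd3 and the epithelial factor Grhl2 were lower with Thr starvation, at -1.92, -1.57 and -1.28. Otx2, Zic2 and Zic5, also formative factors, were higher, by 1.12, 1.19 and 1.70. In the BMP and Nodal list 6 of 21 were higher and 10 lower, with a median of -0.15 that turned to 0.08 after correction and was -0.24 with library totals. Bmp4, a ligand that supports ES cell self-renewal, was at 15.6, 16 and 15 CPM in the Thr-starved libraries and 57.6, 58.2 and 53.7 CPM in the Cys-starved libraries, a log2 fold change of -1.87 (adjusted p = 4.67e-16, SE 0.045). Its target Id1 was lower at -1.02 and the signal transducer Smad3 at -1.75, whereas the ligand Nodal was higher by 0.65, as was the activin antagonist Fst, by 1.36.

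Notch receptors respond to ligands on neighbouring cells and act through HES and HEY repressors. Of 20 ligands, receptors and targets tested, 4 were higher and 13 lower with Thr starvation, with a median of -0.50 that shrank to -0.13 after correction. Notch4 was at 3.57, 3.31 and 3.46 CPM in the Thr-starved libraries and 14.4, 12.7 and 13.7 CPM in the Cys-starved libraries, a log2 fold change of -1.98 (adjusted p = 4.94e-13, SE 0.081). Notch2 and the ligand Jag2 were lower at -0.61 and -0.70, and Notch1 stood at 0.01, not called. The effector Hes1 was higher by 0.54, and the ligand Dll1 was at 15.1, 13.5 and 15.3 CPM in the Thr-starved libraries and 1.53, 1.95 and 2.02 CPM in the Cys-starved libraries, a log2 fold change of 3.00 (adjusted p = 3.33e-14, SE 0.10).

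Lysosomes degrade protein and membrane and return amino acids to the cytosol, and many of their genes carry the E-box motif read by TFEB and TFE3. Of 43 lysosomal genes tested, 32 were higher with Thr starvation (74.4%) and 9 lower, and the median was 0.43. After the GC and length correction 33 were higher and 7 lower, with a median of 0.48. Lamp1, the major lysosomal membrane glycoprotein, was at 594, 582 and 613 CPM in the Thr-starved libraries and 297, 294 and 291 CPM in the Cys-starved libraries, a log2 fold change of 1.02 (adjusted p = 1.31e-16, SE 0.022). Unstarved cells lay between the starved groups, at 401 ± 7.23 CPM (SD, n = 3). Mcoln1, the lysosomal calcium channel, was at 33.7, 32.4 and 31.1 CPM with Thr starvation and 15.6, 14.8 and 13.7 CPM with Cys starvation. Ctsl, a cysteine protease of the lysosome, was at 144, 142 and 151 CPM with Thr starvation and 67.7, 66.6 and 65.3 CPM with Cys starvation. The log2 fold changes of Mcoln1 and Ctsl were 1.14 and 1.13.

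Subunits of the V-ATPase, the proton pump that acidifies lysosomes, were higher by smaller amounts, from 0.23 for Atp6v1g1 to 0.90 for Atp6v0b, except that Atp6v0a1 was not called (0.03). Grn, the precursor of the lysosomal granulins, Lamp2 and Hexa, a β-hexosaminidase subunit, were higher by 1.08, 1.01 and 0.86. Enzymes of lipid and heparan sulfate breakdown were among the exceptions. Lipa, the acid lipase that releases cholesterol from its esters, was lower at -1.06, Npc1, which exports that cholesterol, at -0.56, and Sgsh and Naglu, which degrade heparan sulfate, at -1.03 and -0.76. The regulators parted as well, with Tfe3 and Mitf higher by 0.48 and 0.57 and Tfeb lower at -0.22.

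The E-box CACGTG was present in 13 of 43 promoter windows of lysosomal genes (30.2%), beside 9.57% of all windows, and it was found in 12.3% of windows of genes at least 2-fold higher with Thr starvation and 6.36% of those at least 2-fold lower. The stretches of Lamp1 (chr8:13159061-13159160, forward strand), Mcoln1 (chr8:3500419-3500518, forward strand) and Atp6v0b (chr4:117887330-117887429, reverse strand), which hold it 4, 2 and 2 times, are shown as members of the list that were higher with Thr starvation, with the motif in capitals.
Lamp1: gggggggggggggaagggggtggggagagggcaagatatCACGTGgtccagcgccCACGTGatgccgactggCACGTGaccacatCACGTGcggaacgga
Mcoln1: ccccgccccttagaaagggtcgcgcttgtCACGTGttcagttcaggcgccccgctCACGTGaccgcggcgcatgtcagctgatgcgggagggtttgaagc
Atp6v0b: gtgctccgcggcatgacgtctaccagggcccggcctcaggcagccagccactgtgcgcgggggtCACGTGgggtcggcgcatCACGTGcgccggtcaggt
Both kinds of member leaned to the same side. The 13 genes with it in a window had 10 higher and 3 lower (median 0.48), and the 21 genes with windows lacking it had 14 higher and 5 lower (median 0.41).

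The autophagy machinery, which delivers cargo to the lysosome, stood closer to the background, with 17 of 33 genes higher and 9 lower (median 0.11, 0.23 after correction and 0.03 with library totals). Atg12 and Gabarap, ubiquitin-like proteins of autophagosome formation, were higher by 0.80 and 0.57, and Atg13 and Atg2a were lower at -0.59 and -0.64. Among 36 genes that tell mTORC1 about amino acids, 18 were higher and 13 lower, with a median of 0.08. After correction 21 were higher and 11 lower (median 0.18), and with library totals 15 were higher and 15 lower (median -0.0022). The arginine sensor Castor1 and its relative Castor2 were lower with Thr starvation, at -1.75 and -1.38. The leucine sensor and ATF4 target Sesn2 was higher, by 0.78, as were the Rag GTPase Rragc, by 0.88, and folliculin (Flcn), by 0.76.

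Of 19 SR splicing factors and the CLK kinases that phosphorylate them, 13 were higher and 4 lower with Thr starvation (median 0.48, 0.37 after correction). Tra2a (chr6:49243924-49264033), a splicing activator that controls its own mRNA through a poison exon, was at 668, 661 and 685 CPM in the Thr-starved libraries and 243, 247 and 241 CPM in the Cys-starved libraries, a log2 fold change of 1.46 (adjusted p = 1.87e-18, SE 0.021). Its paralog Tra2b was higher by 0.79, and Clk4 and Clk1 by 1.23 and 0.79. Srsf3 and the SR protein kinase Srpk2 were lower, at -0.47 and -0.56. Gene counts do not show which isoforms were made.

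Nonsense-mediated decay (NMD) removes transcripts with early stop codons and depends on translation. Of 17 NMD factors, 12 were higher and 2 lower (median 0.26), with Upf3a and Smg9 higher by 0.78 and 0.68. Host transcripts of small nucleolar RNAs, many of which are NMD substrates, had 12 of 21 higher and 6 lower (median 0.54, 0.33 after correction). Snhg1 was at 251, 244 and 247 CPM in the Thr-starved libraries and 60.0, 63.2 and 63.6 CPM in the Cys-starved libraries, a log2 fold change of 1.99 (adjusted p = 1.87e-18, SE 0.028). Gas5, a host transcript known to build up when translation stops, was at 187, 177 and 189 CPM with Thr starvation and 77.8, 80.5 and 80.0 CPM with Cys starvation. Snhg5 went against this, with 15.8, 16.4 and 15.6 CPM with Thr starvation and 39.6, 40.9 and 39 CPM with Cys starvation, a difference of -1.32.

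Of 40 genes that license origins and build the replication fork, 29 were higher with Thr starvation and 6 lower (median 0.29, 0.33 after correction). The sizes were small for most. Orc6, the smallest subunit of the origin recognition complex, stood out at 205, 205 and 208 CPM in the Thr-starved libraries and 98.2, 97 and 95.7 CPM in the Cys-starved libraries, a log2 fold change of 1.09 (adjusted p = 2.40e-16, SE 0.025). The GINS subunit Gins1 was higher by 0.97, and the helicase subunits Mcm4, Mcm5 and Mcm6 by 0.57, 0.56 and 0.53, while Mcm2 differed by 0.07 and Mcm7 was not called (-0.02). Ribonucleotide reductase, which makes deoxyribonucleotides, was higher in both of its S-phase subunits, with Rrm1 at 405, 403 and 407 CPM with Thr starvation and 218, 219.8 and 218 CPM with Cys starvation and Rrm2 at a log2 fold change of 0.71.

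Of 47 cyclins, inhibitors and mitotic genes, 30 were higher and 11 lower (median 0.28). The D-type cyclins, which link growth factor signals to the cell cycle, were among the latter. Ccnd1 was at 30.3, 33.9 and 31.9 CPM in the Thr-starved libraries and 101, 104 and 102 CPM in the Cys-starved libraries, a log2 fold change of -1.68 (adjusted p = 1.57e-16, SE 0.037), and Ccnd2 and Ccnd3 were lower at -1.92 and -0.31. The inhibitor Cdkn1a (p21), also a p53 target, was higher by 1.91, and Cdkn1b (p27) and Cdkn1c (p57) by 0.54 and 0.32. Genes of mitosis such as Kif11, Prc1 and Hmmr were higher by 0.79, 0.74 and 0.65, whereas Bub1b and Aurkb were lower at -0.48 and -0.35.

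Replication-dependent histone genes, whose mRNAs normally lack a poly(A) tail, had 23 of 25 members higher and 0 lower with Thr starvation (median 1.07), in libraries selected for poly(A). Only 5 of them reached 5 CPM. Hist1h2ad was at 204, 202 and 212 CPM in the Thr-starved libraries and 74.9, 75.2 and 72.6 CPM in the Cys-starved libraries, a log2 fold change of 1.47 (adjusted p = 2.69e-17, SE 0.028). Hist1h2ab, Hist1h2ac and Hist1h2ae had almost the same fold change, 1.47, 1.47 and 1.48, and near-identical copies of these genes may share reads, so that they count as uncertain and not as separate evidence.

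**Figure D3:**
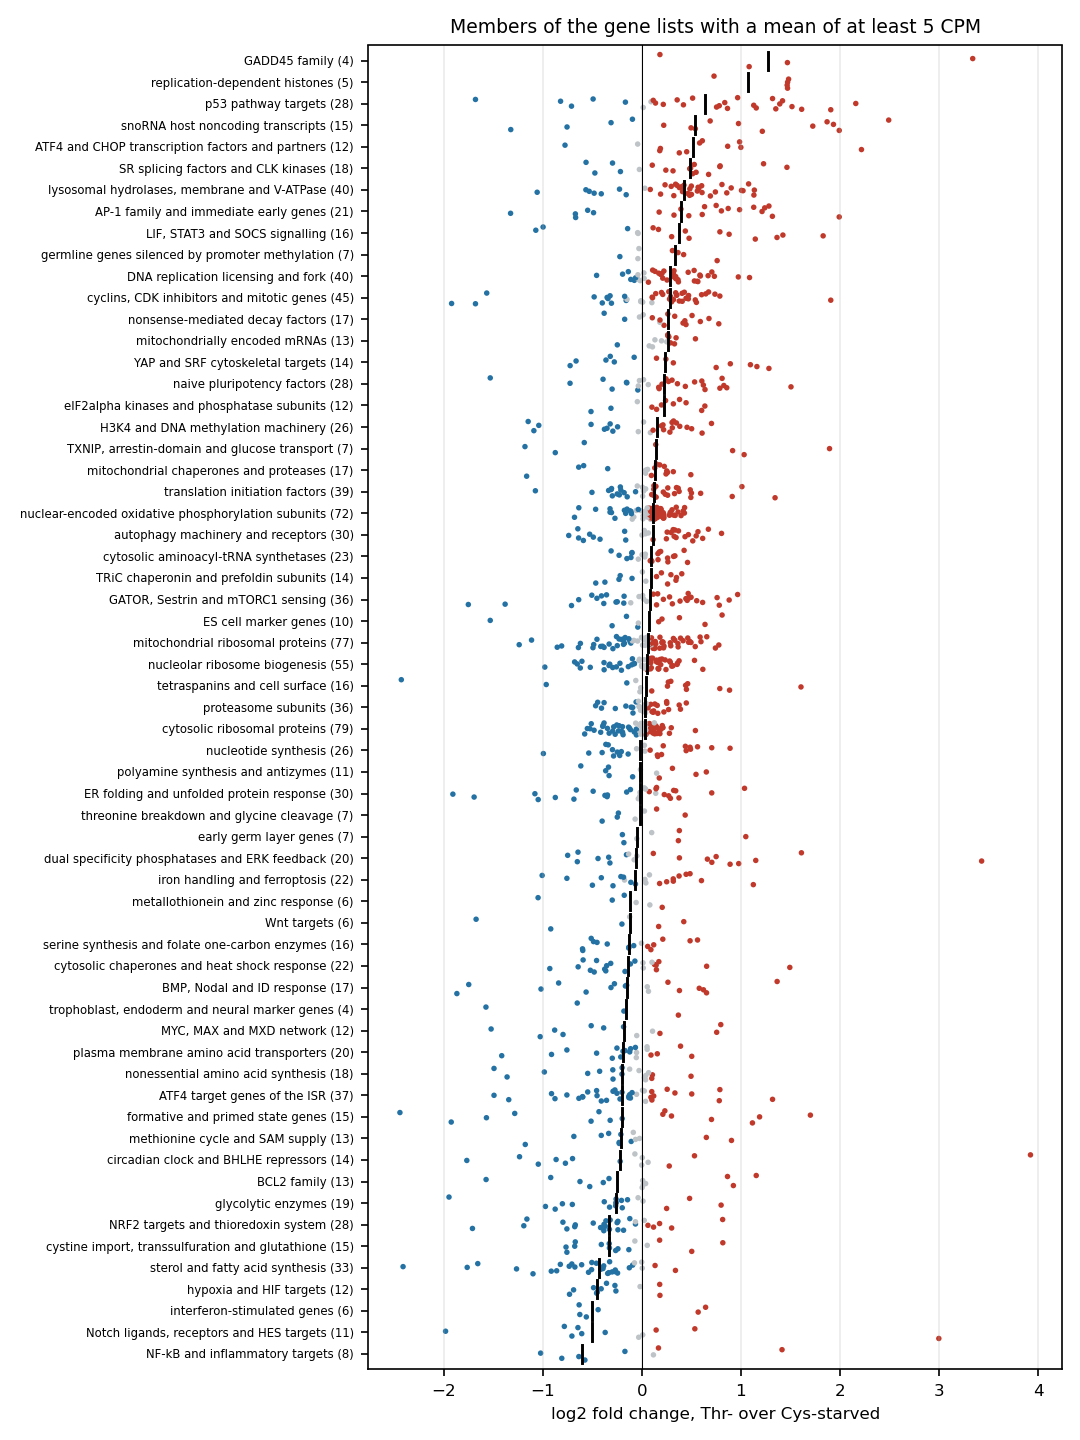
Log2 fold change of Thr-starved over Cys-starved libraries for the members of each gene list with at least 5 CPM (number in brackets), coloured by call at an adjusted p of 0.05 or less, red for higher with Thr starvation, blue for lower and grey for not called. A black line marks the median of all tested members, from 1.28 for the GADD45 list at the top to -0.60 for NF-kB targets at the bottom.

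SREBP2 and SREBP1, encoded by Srebf2 and Srebf1, drive the enzymes of cholesterol and fatty acid synthesis. Of 34 genes, 29 were lower with Thr starvation (85.3%) and 2 higher, with a median of -0.44. After correction 27 were lower and 3 higher (median -0.38). Dhcr7, which makes the last step to cholesterol, was at 7.21, 7.79 and 7.59 CPM in the Thr-starved libraries and 26.7, 24.9 and 25 CPM in the Cys-starved libraries, a log2 fold change of -1.76 (adjusted p = 2.77e-14, SE 0.057). Scd2, a desaturase that makes monounsaturated fatty acids, was at 72.5, 70.8 and 73.5 CPM in the Thr-starved libraries and 237, 222 and 224 CPM in the Cys-starved libraries, a difference of -1.65 (adjusted p = 1.59e-17, SE 0.030).

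Early and late steps of the sterol pathway were both affected, with Hmgcs1 lower at -1.10, Sqle, the squalene epoxidase, at -0.86, and Nsdhl, a late demethylating enzyme, at -1.26. In fatty acid synthesis, Fasn was lower at -0.82, Acaca at -0.61 and Acly at -0.46. The 2 genes called higher were Lss, lanosterol synthase, at 0.34, and Srebf2 itself, at 0.13. Insig1, the sterol-responsive retention factor of SREBP, was lower at -0.73. The CCAAT box, bound by NF-Y, was present in 21 of 28 windows of the list (75%) beside 37.7% of all windows.

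NRF2 (Nfe2l2) is held by KEAP1 until oxidants or electrophiles release it, and then activates genes for glutathione synthesis, NADPH supply and thioredoxin. Of 29 NRF2 targets and thioredoxin genes, 22 were lower with Thr than with Cys starvation (75.9%) and 5 higher, with a median of -0.33 and of -0.26 after correction. Srxn1 (chr2:152105516-152111376), which repairs peroxiredoxins, was at 6.67, 7.89 and 7.38 CPM in the Thr-starved libraries and 25.2, 24 and 22.6 CPM in the Cys-starved libraries, a log2 fold change of -1.71 (adjusted p = 2.63e-13, SE 0.066). Unstarved cells were higher than both starved groups, at 35.9 ± 0.684 CPM (SD, n = 3). Pgd, an NADPH-producing enzyme of the pentose phosphate pathway, was at 59.3, 58.8 and 61.4 CPM in the Thr-starved libraries and 136, 138 and 135 CPM in the Cys-starved libraries, a difference of -1.19 (adjusted p = 4.52e-16, SE 0.028). Tkt, G6pdx and Me1, further genes of sugar shunting and NADPH supply, were lower at -0.67, -0.37 and -0.38.

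Of further NRF2 targets, the cystine exchanger gene Slc7a11 was lower at -0.76, Nqo1 at -0.38, Gclm at -0.33, Gclc at -0.24 and Hmox1, which degrades haem, at -0.18. Txnrd1, thioredoxin reductase, was higher with Thr starvation, at 198, 198 and 198 CPM with Thr starvation and 161, 160.1 and 159.9 CPM with Cys starvation, and its unstarved level of 271 ± 10.0 CPM (SD, n = 3) was above both. Nfe2l2 itself was higher, at 136, 140.1 and 145 CPM in the Thr-starved libraries and 79.8, 78.3 and 81.2 CPM in the Cys-starved libraries, a log2 fold change of 0.82 (adjusted p = 1.09e-13, SE 0.030), and its inhibitor Keap1 was lower at -1.16.

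The core of the antioxidant response element, TGACNNNGC, was present in 11 of 32 windows of this list (34.4%) and in 14% of all windows. The stretches of Gclm (chr3:122245407-122245506, forward strand), G6pdx (chrX:74428881-74428980, reverse strand) and Txnrd1 (chr10:82859106-82859205, forward strand) each hold it once, on the strand opposite to the one printed, and show it in capitals beside genes that were lower, lower and higher with Thr starvation.
Gclm: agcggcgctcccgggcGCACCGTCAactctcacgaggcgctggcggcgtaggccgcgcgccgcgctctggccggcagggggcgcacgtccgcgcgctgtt
G6pdx: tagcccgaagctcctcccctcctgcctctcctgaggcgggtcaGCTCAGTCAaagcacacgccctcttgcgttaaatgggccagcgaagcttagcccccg
Txnrd1: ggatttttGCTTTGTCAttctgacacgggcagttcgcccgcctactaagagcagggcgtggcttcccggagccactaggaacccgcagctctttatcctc
Genes of the list with the core in a window had 3 higher and 7 lower (median -0.32) and those without it 2 higher and 10 lower (median -0.30).

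Genes of cystine import, transsulfuration and glutathione had 15 of 22 members lower with Thr starvation and 4 higher (median -0.33, -0.24 after correction). Gss, glutathione synthetase, and Gsr, glutathione reductase, were lower at -0.76 and -0.68. The transsulfuration enzymes Cbs and Cth, which make Cys from homocysteine, were lower at -0.26 and -0.13. Chac1, which degrades glutathione and is an ATF4 target, was lower at -0.41. Slc3a2, the heavy chain of the cystine exchanger and of other transporters, was higher by 0.50, and Cdo1, which commits Cys to oxidation, by 0.82.

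Iron handling and ferroptosis genes showed no common side, with 10 of 27 higher and 12 lower and a median of -0.06 that turned to 0.02 after correction and was -0.15 with library totals and -0.02 with the deposited size factors. Gpx4, the glutathione peroxidase that clears lipid peroxides, was at 193, 186 and 198 CPM in the Thr-starved libraries and 152, 156 and 155 CPM in the Cys-starved libraries, a log2 fold change of 0.32 (adjusted p = 1.03e-08, SE 0.027). Acsl4, which loads polyunsaturated fatty acids into membranes, was higher by 0.60. The transferrin receptor Tfrc was lower at -0.29, and Nfs1, the cysteine desulfurase of iron-sulfur cluster assembly, at -1.01. Mt1, a metallothionein, was higher by 0.21 and Mt2 was not called (0.08, and negative with scaling by library totals). Of 8 metallothionein and zinc genes, 1 was higher and 4 lower (median -0.12, -0.06 after correction and -0.20 with library totals).

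Of 22 glycolysis genes, 16 were lower with Thr starvation and 3 higher, with a median of -0.26 that shrank to -0.09 after correction, where 11 were lower and 5 higher. The lactate exporter Slc16a3 was lower at -1.94, Pfkm, Hk1 and Tpi1 at -0.97, -0.87 and -0.80, and Pfkfb3, which makes an activator of phosphofructokinase, was higher by 0.80. Slc2a1 (chr4:119108711-119137983), the glucose transporter GLUT1, was at 116, 122 and 122 CPM in the Thr-starved libraries and 277, 271 and 266 CPM in the Cys-starved libraries, a log2 fold change of -1.18 (adjusted p = 2.62e-16, SE 0.027). The Cys-starved level lay between the Thr-starved and the unstarved one of 380.1 ± 8.13 CPM (SD, n = 3).

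Txnip and Arrdc4, arrestin-domain proteins that remove glucose transporters from the cell surface, stood on the other side. Txnip was at 483, 506 and 499 CPM in the Thr-starved libraries and 249.5, 242 and 236 CPM in the Cys-starved libraries, a log2 fold change of 1.03 (adjusted p = 4.25e-16, SE 0.025). Arrdc4 was at 366, 371 and 376 CPM in the Thr-starved libraries and 102, 102 and 96 CPM in the Cys-starved libraries, a difference of 1.89 (adjusted p = 1.87e-18, SE 0.027). Slc2a3, the neuronal-type glucose transporter, differed by 0.14. Hypoxia-inducible genes had 13 of 18 lower and 2 higher (median -0.45, -0.43 after correction), with the oxygen sensor Egln1 lower at -0.73, Pdk1, which closes entry of pyruvate into mitochondria, at -0.49, and Vegfa at -0.46. Hif1a itself was higher by 0.18.

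The ISR lists were counted separately for transcription factors and for target genes. Of 12 transcription factors and partners around ATF4 and CHOP, 10 were higher with Thr starvation and 1 lower (median 0.52). Of 39 ATF4 target genes, 10 were higher and 25 lower (median -0.20), and after correction 14 were higher and 19 lower (median -0.04). Atf4 was at 585, 592 and 602 CPM in the Thr-starved libraries and 461, 460.4 and 448 CPM in the Cys-starved libraries, a log2 fold change of 0.38 (adjusted p = 1.60e-11, SE 0.020). Cebpg, which pairs with ATF4, was at 126, 125 and 132 CPM in the Thr-starved libraries and 64.5, 65 and 62.2 CPM in the Cys-starved libraries, a difference of 1.00 (adjusted p = 1.25e-14, SE 0.031). Ddit3, which encodes CHOP, had the largest difference of these factors, at 85.5, 88 and 83.5 CPM in the Thr-starved libraries and 18.7, 18.3 and 18.3 CPM in the Cys-starved libraries, a log2 fold change of 2.22 (adjusted p = 5.57e-18, SE 0.036). Cebpd and the small Maf protein gene Maff were higher by 0.87 and 0.99, while Jdp2, a repressor of the same basic zipper class, was lower at -0.77.

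Targets spread over both sides. Gdf15, a secreted stress hormone, was at 39.3, 39.8 and 38.5 CPM in the Thr-starved libraries and 15.4, 15.8 and 15.9 CPM in the Cys-starved libraries, a log2 fold change of 1.32 (adjusted p = 2.06e-14, SE 0.042). Asns, asparagine synthetase, was at 0.04 and not called (negative after correction and with library totals), Psat1 and Mthfd2 differed by 0.09 and 0.12, and Phgdh and Psph, the other serine synthesis enzymes, were lower at -0.60 and -0.60. Trib3, the pseudokinase that feeds back on ATF4, was -0.04 and not called, and it became 0.24 and was called higher after correction. As a group, serine and folate one-carbon enzymes had 6 of 18 higher and 10 lower, with a median of -0.13 that moved to -0.02 after correction and was -0.22 with library totals.

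The composite element of C/EBP and ATF proteins, searched as TGATGNAA on both strands, was present in 2.38% of all windows, in 10 of 37 windows of ATF4 targets (27%) and in 4 of 16 windows of the transcription factors (25%). Its share was 3.08% among genes at least 2-fold higher with Thr starvation and 3.22% among those lower. Stretches of 5 genes are shown, chosen because they hold the element and stood on different sides, namely Gadd45g (chr13:51846525-51846624, forward strand) and Atf3 (chr1:191183384-191183483, reverse strand), which were higher with Thr starvation, and Pck2 (chr14:55540116-55540215, forward strand), Inhbe (chr10:127351949-127352048, reverse strand) and Slc7a11 (chr3:50443614-50443713, reverse strand), which were lower. The element is in capitals, in either orientation.
Gadd45g: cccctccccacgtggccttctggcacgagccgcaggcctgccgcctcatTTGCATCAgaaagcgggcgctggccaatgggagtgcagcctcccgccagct
Atf3: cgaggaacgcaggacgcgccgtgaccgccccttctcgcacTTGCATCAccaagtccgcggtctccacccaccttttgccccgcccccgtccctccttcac
Pck2: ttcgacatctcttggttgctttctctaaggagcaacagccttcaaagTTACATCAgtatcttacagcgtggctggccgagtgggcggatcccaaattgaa
Inhbe: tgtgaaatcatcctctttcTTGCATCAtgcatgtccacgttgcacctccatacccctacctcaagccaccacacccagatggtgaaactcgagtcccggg
Slc7a11: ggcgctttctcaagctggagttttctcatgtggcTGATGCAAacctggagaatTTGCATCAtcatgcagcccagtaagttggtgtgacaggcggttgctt
The log2 fold changes of these genes were 3.34, 0.45, -1.49, -1.34 and -0.76 in the order shown. Among ATF4 targets the 10 genes with the element in a window had 1 higher and 8 lower (median -0.65), and the 20 without it had 8 higher and 11 lower (median -0.17).

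Plasma membrane amino acid transporters had 15 of 27 members lower with Thr starvation and 5 higher (median -0.19, -0.14 after correction). Slc6a6, the taurine transporter, was lower at -1.41 and Slc6a9, a glycine transporter, at -0.91. Slc1a5, a neutral amino acid exchanger that carries Thr and Gln, was lower at -0.21. Enzymes of nonessential amino acid synthesis had 10 of 19 lower and 3 higher, with a median of -0.20 that turned to 0.0086 after correction. Glul (chr1:153899944-153909723), glutamine synthetase, was at 132, 133 and 134 CPM in the Thr-starved libraries and 341, 346 and 334 CPM in the Cys-starved libraries, a log2 fold change of -1.36 (adjusted p = 1.02e-17, SE 0.023).

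Cytosolic aminoacyl-tRNA synthetases, which load amino acids onto tRNAs, had 13 of 23 higher and 6 lower and differed by small amounts (median 0.09). With library totals 10 were higher and 10 lower (median 0.01). Tars, the synthetase for Thr, was at 407, 403 and 419.5 CPM in the Thr-starved libraries and 370.0, 367 and 362 CPM in the Cys-starved libraries, a log2 fold change of 0.16 (adjusted p = 3.22e-06, SE 0.022). Cars, the synthetase for Cys, was at 305, 304 and 300.3 CPM with Thr starvation and 251, 255 and 252 CPM with Cys starvation, a difference of 0.26. Both were higher with Thr starvation, and Aars, for alanine, which overlaps Exosc6 on the same strand, was at 0.46.

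Tdh, the first enzyme of Thr breakdown, was at 225, 229.5 and 232 CPM in the Thr-starved libraries and 303, 304 and 298 CPM in the Cys-starved libraries, a log2 fold change of -0.40 (adjusted p = 3.11e-11, SE 0.022). Both groups were below the unstarved level of 358 ± 5.40 CPM (SD, n = 3). Gcat, which takes the next step to glycine, was -0.07 and not called, and it became 0.16 after correction. In the glycine cleavage system Gldc was lower at -0.25 and Amt higher by 0.44, so the list of 8 genes had 3 higher and 3 lower (median -0.02, or 0.06 after correction, -0.10 with library totals and 0.02 with the deposited size factors).

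Mat2a (chr6:72432799-72439558), which makes S-adenosylmethionine and whose mRNA is known to be stabilized when the methyl donor runs low, was at 188, 196 and 178 CPM in the Thr-starved libraries and 423, 432 and 413 CPM in the Cys-starved libraries. Its log2 fold change was -1.18 (adjusted p = 1.10e-15, SE 0.030), and the unstarved libraries were above both groups at 483 ± 12.6 CPM (SD, n = 3). Of 15 methionine cycle genes, 2 were higher and 8 lower (median -0.21, -0.14 after correction). Mtap, of the methionine salvage pathway, was lower at -0.69, and Amd1, which turns S-adenosylmethionine towards polyamines, was higher by 0.65. Genes that write and erase H3K4 and DNA methylation had 14 of 26 higher and 9 lower (median 0.16, 0.07 with library totals). The H3K4 methyltransferase gene Setd1b, the demethylase gene Kdm2b and the DNA hydroxylase gene Tet3 were lower at -1.09, -1.04 and -1.15, the de novo methyltransferases Dnmt3a and Dnmt3b at -0.51 and -0.32, and their cofactor Dnmt3l was higher by 0.70.

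In the endoplasmic reticulum 11 of 30 genes were higher and 13 lower with Thr starvation, with a median of -0.02 that became 0.02 with the deposited size factors and -0.10 with library totals. Pdia4 (chr6:47796141-47813430), a protein disulfide isomerase, was at 97.8, 104 and 106 CPM in the Thr-starved libraries and 328, 339.8 and 326 CPM in the Cys-starved libraries, a log2 fold change of -1.69 (adjusted p = 1.18e-17, SE 0.030). Hspa5 (BiP), the central chaperone of this compartment, was at 248, 246 and 251 CPM in the Thr-starved libraries and 509, 525 and 504 CPM in the Cys-starved libraries, a difference of -1.05 (adjusted p = 8.37e-17, SE 0.022). Manf, a secreted stress factor, was at -1.91, but it overlaps Rbm15b on the same strand and reads cannot be told apart there. Xbp1, which drives these genes, was lower at -1.08, whereas Atf6, a sensor of the same response, and Selenos, a selenoprotein of ER-associated degradation, were higher by 0.71 and 1.04.

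In mitochondria Hspd1 (chr1:55077835-55088243), the chaperonin HSP60, was at 518, 519.7 and 526 CPM in the Thr-starved libraries and 1163, 1176 and 1158 CPM in the Cys-starved libraries, a log2 fold change of -1.16 (adjusted p = 1.87e-18, SE 0.017). Its partner Hspe1 (HSP10), transcribed from the neighbouring gene in the opposite direction, differed by 0.10 in the other direction. Hspa9, the mitochondrial HSP70, was higher by 0.49, and 10 of 17 genes of this list were higher and 4 lower (median 0.13, 0.05 with library totals). Cytosolic chaperones had 6 of 24 higher and 14 lower (median -0.14, -0.09 after correction and -0.23 with library totals). The abundant Hspa8 and Hsph1 were lower, at -0.93 and -0.64, while Hsp90aa1 was higher by 0.65 and the small heat shock protein gene Hspb8 by 1.49.

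**Figure D4:**
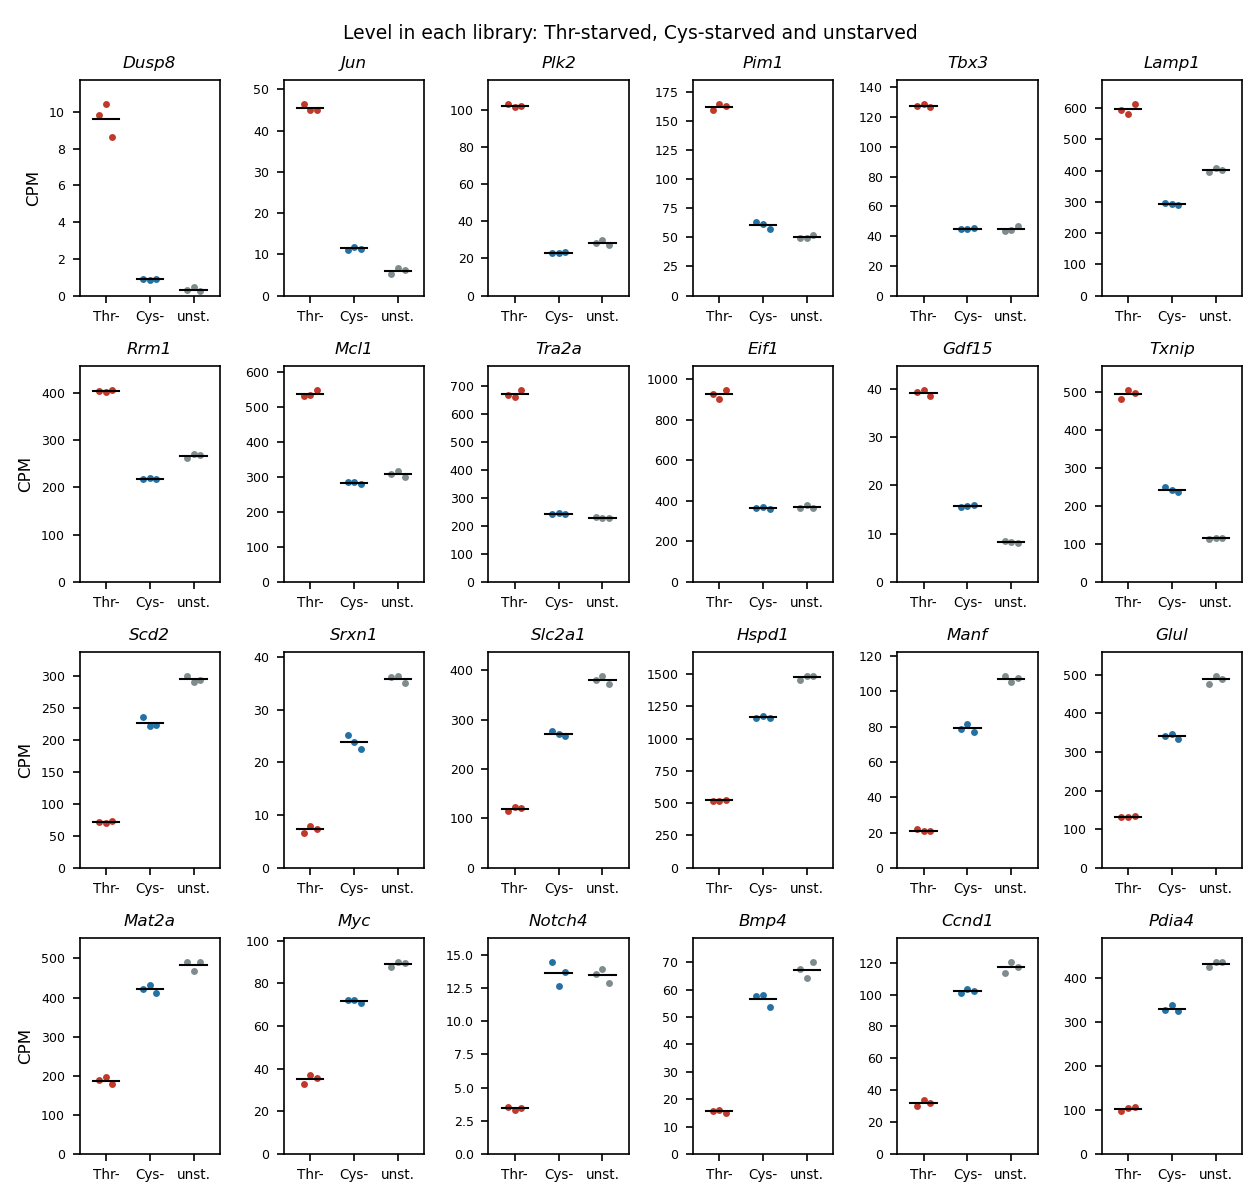
Level in CPM of 24 genes named in the text in each of the 3 Thr-starved, 3 Cys-starved and 3 unstarved libraries (points) with the group mean (line), each panel on its own axis from 0. Thr-starved and Cys-starved libraries do not overlap in any panel, and for several genes that are lower with Thr starvation, such as Slc2a1 and Mat2a, the Cys-starved libraries lie nearer to the unstarved ones.

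Large complexes of translation, protein turnover and respiration were close to level, although many of their members were called. Cytosolic ribosomal proteins had 33 of 79 higher and 27 lower, with a median of 0.03 that was -0.0042 after correction, -0.05 with library totals (14 higher, 39 lower) and 0.07 with the deposited size factors. Proteasome subunits had 15 of 36 higher and 10 lower, with a median of 0.03 that was -0.02 after correction, -0.05 with library totals (9 higher, 17 lower) and 0.07 with the deposited size factors. Mitochondrial ribosomal proteins had 36 of 77 higher and 25 lower (median 0.07, or -0.02 with library totals and 0.11 with the deposited size factors). Nuclear genes of oxidative phosphorylation had 46 of 72 higher and 14 lower (median 0.12), which became 39 and 15 after correction (median 0.10) and 26 and 19 with library totals (median 0.03). The mRNAs encoded in mitochondria had 7 of 13 higher and 1 lower, with a median of 0.26 that turned to -0.04 after correction, and their sums overlapped between groups, at 5411 to 7243 CPM with Thr and 5117 to 5693 CPM with Cys starvation.

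Translation initiation factors had 21 of 39 higher and 13 lower (median 0.12), and 17 and 17 with library totals (median 0.04). A few of them differed by more than the rest. Eif1, which guards the choice of start codon, was at 927, 902 and 947 CPM in the Thr-starved libraries and 364, 371 and 359 CPM in the Cys-starved libraries, a log2 fold change of 1.34 (adjusted p = 4.07e-18, SE 0.021). Its counterpart Eif5 was higher by 1.01, and both are known to regulate each other's translation. Eif3l was lower at -1.07. Of 12 eIF2α kinase and phosphatase genes, 9 were higher and 2 lower (7 and 3 with library totals), with Eif2ak4, which encodes GCN2, lower at -0.31 and the phosphatase subunit Ppp1r15b higher by 0.64.

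**Figure D5:**
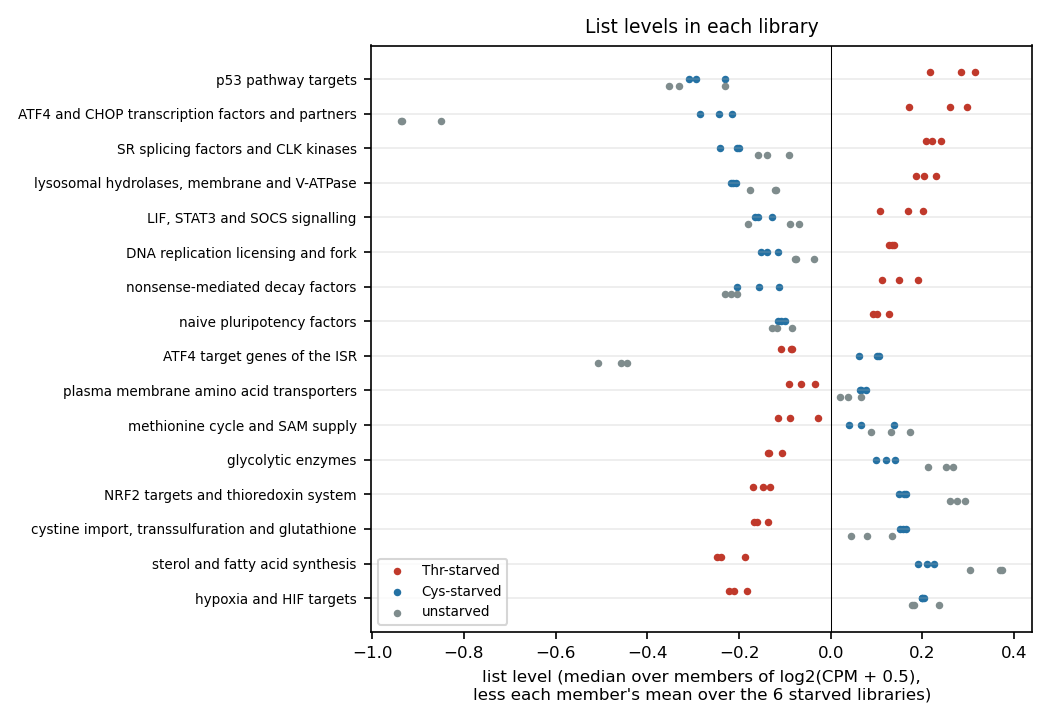
Level of 16 gene lists in each library, as the median over members of log2(CPM + 0.5) less each member's mean over the 6 starved libraries, with Thr-starved, Cys-starved and unstarved libraries as separate points. For sterol and fatty acid synthesis the Thr-starved libraries lie at -0.25 to -0.19 and the Cys-starved at 0.19 to 0.23, and for lysosomal genes at 0.19 to 0.23 and -0.22 to -0.21.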

How the data were processed

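Poly(A) RNA was taken from 9 E14 samples, 3 unstarved and 3 for each starvation, and sequenced from both ends in a single run, with 43 bases per read. The authors made the counts by aligning to GRCm38 with STAR 2.7.4a (per the submitters' processing notes) and counting per gene with HTSeq, and deposited them without normalization. The strand and overlap settings were not given in the sources used here. The signal values of the normalized table were made by the authors by dividing the same counts by 1 size factor per library from DESeq2, and these served only as an alternative scaling.

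Counts of the 6 starved libraries were tested in R 4.3.3 with edgeR 4.0.16 (TMM, quasi-likelihood F test, Benjamini-Hochberg adjusted p of 0.05 or less) over 20140 genes with at least 1 count, out of 20189. Of these, 18 had no symbol in the annotation. Replicate numbers in the titles were not used to pair the samples in the main fit. Libraries of equal number deviated from their group means with correlations of -0.134, -0.051 and -0.246. Deviations within a group sum to 0, so these correlations cannot show whether libraries shared a day or culture. Tests were checked on simulated counts. Python 3.11.15 with pandas 2.3.3 gave the tables and motif searches, and matplotlib 3.10.9 the plots.

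The comparison and its 63 gene lists were chosen with earlier results of these data known. Named by rule were the 10 called genes with the largest difference in each direction (at least 5 CPM, groups not overlapping), up to 2 per list and direction, and a fixed set of genes, some of which are not reported here. Other list members named in the text, such as Lamp1, Stat3, Scd2, Fasn and Hmgcs1, and the promoter stretches shown were chosen after their values were seen. Of 270 genes named by rule, 27 overlap another gene on the same strand and 89 on the opposite one, where counts may include reads of the neighbour. Alternatives were DESeq2 1.42.0, other scalings, filters and thresholds, thinned counts, the replicate block, all 9 libraries in the fit, GC and length offsets (loess, span 0.3) and each library left out.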

Additional observations from a re-analysis of the deposited data

How the results depend on the processing

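The count of 12463 called genes kept its size under every alternative run, from 10719 with an adjusted p of 0.01 or less to 12540 with the deposited size factors, and was 11787 with DESeq2. Without each library in turn it ranged from 11717 to 11969. With the replicate block 12103 genes were called, 6005 higher and 6098 lower. No library correlated best with the one of its own number, which does not settle whether the samples were paired. Scaling by library totals alone shifted the median of all genes from -0.01 to -0.10 and the share of higher genes among calls from 49.6% to 40.2%, with 4974 higher and 7392 lower. Among calls of at least 2-fold, 33.1% were higher in the main fit. This share was lowest with library totals, at 25.2%, and highest with the GC and length offsets, at 38.0%. Of 63 list medians, the GC and length offsets changed the sign of 15, library totals of 7 and the deposited size factors of 4. Since even values prevailed among low counts, a fit on halved counts was added after seeing the data, and it called 12490.

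Leaving out 1 library turned the median of 5 of 63 lists. The median of the ER list (-0.02) became 0.0067 without Cys-starved replicate 2 and 0.0044 without Thr-starved replicate 2, and that of Thr breakdown (-0.02) became 0.0044 without Thr-starved replicate 2. Wnt targets (-0.12) became 0.02 without Cys-starved replicate 2, polyamine genes (-0.01) 0.0029 without Cys-starved replicate 3, and 2-cell-like genes (-0.07) 0.12 and 0.07 without Cys-starved replicate 1 and Thr-starved replicate 2. The BCL2 median of -0.25 shrank to -0.01 without Cys-starved replicate 1 and -0.07 without Thr-starved replicate 3, BMP and Nodal from -0.15 to -0.04 without Thr-starved replicate 1, and mitochondrial mRNAs from 0.26 to 0.17 without the same library. YAP and SRF targets moved from 0.24 to 0.15 without Cys-starved replicate 3, and metallothionein and zinc genes from -0.12 to -0.23 without Cys-starved replicate 2. Methionine cycle genes moved from -0.21 to -0.13 and -0.14, and autophagy genes from 0.11 to 0.23 and 0.24, without Cys-starved replicate 2 and Thr-starved replicate 2. Several lists with a median within 0.1 of 0 moved by more than 1.5 times as well. With the GC and length offsets, Wnt targets had a median of 0.03, polyamine genes 0.11 and 2-cell-like genes -0.22. With library totals these medians were -0.21, -0.10 and -0.15, in the same order.

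Some single genes changed direction. Under the GC and length offsets, first alone and then joined to the replicate block, Krt8 became 0.039 and 0.039, mt-Co3 -0.0076 and -0.0096, mt-Atp6 -0.037 and -0.043, Dhx34 0.038 and 0.037, Pold2 0.10 and 0.10, Gcat 0.16 and 0.16, Trib3 0.24 and 0.24, Asns -0.014 and -0.014, Pou5f1 0.18 and 0.18, and Mycn 0.14 and 0.14. Of these, Pold2 and Pou5f1 went from called lower to called higher, and Trib3 and Mycn from not called to called higher, under both settings. Library totals gave Asns -0.047 and Mt2 -0.00345, and the deposited size factors gave Pou5f1 0.000474. The causes were not tested beyond these alternatives.

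At the library totals of the data, simulated counts recovered 38 of 50 genes changed by 1.25-fold, 48 of 50 by 1.5-fold and all 50 by 2-fold. There were 8 false calls, and the misses concerned the smaller changes. All changes were planted in well-counted genes, so misses at low counts could not appear. Far fewer genes were changed than were called in the data, and counts were drawn without doubling of reads. The recovered and false calls therefore do not carry over to the data. In the data, larger differences could also go uncalled. The 2-cell-like list had 1 of 15 genes at 5 CPM or more. Its lowest log2 fold change was -3.11, yet 0 of its genes were called at least 2-fold lower. The share of Thr and Cys residues in the encoded proteins, planned as a description, was not analysed here.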

Other observations

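Lists outside the pathways described above gave further values. Of 14 NF-kB and inflammatory genes, 9 were lower with Thr starvation and 3 higher, with a median of -0.60 that shrank to -0.33 with the GC and length offsets. Nfkbia, the inhibitor that NF-kB induces to switch itself off, was lower, at -1.02, and the subunits Nfkb2, Rela and Nfkb1 were at -0.81, -0.63 and -0.57. Icam1, an adhesion molecule and classical target, stood on the other side, at 93.4, 94.1 and 98.2 CPM in the Thr-starved libraries and 35.2, 35.2 and 36.9 CPM in the Cys-starved libraries, a log2 fold change of 1.41 (adjusted p = 4.52e-16, SE 0.034) in edgeR's test. Interferon-stimulated genes had 6 of 10 lower and 3 higher (median -0.50).

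Clock genes split between repressors. Nr1d1 and Nr1d2, which repress Arntl, were lower with Thr starvation, at -1.76 and -0.86, as were the period genes Per1 and Per2, at -1.04 and -0.85. Arntl itself was not called (-0.00), nor was Cry1 (0.06). Bhlhe40, a repressor of clock output, and its relative Bhlhe41 were higher, at 0.53 and 3.92, and 9 of 19 genes of the list were lower and 3 higher (median -0.22). With the GC and length offsets 8 were lower and 4 higher (median -0.04).

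Targets of YAP and SRF, which respond to the cytoskeleton, had 9 of 18 higher and 6 lower (median 0.24, 0.15 with library totals). The YAP targets Ccn1, Amotl2 and Ajuba were higher with Thr starvation, at 1.28, 1.16 and 1.10, and the cytoskeletal genes Actb, Vcl and Flna were lower, at -0.66, -0.36 and -0.32. Tetraspanins and other cell surface genes had 10 of 20 higher and 6 lower (median 0.04, -0.04 with library totals and 0.17 after the GC and length correction). Esam and Spn, adhesion and leukocyte surface proteins, were lower, at -2.87 and -2.43, and the tetraspanin Tspan14 at -0.96. Among the tetraspanins, Tspan6 and Cd63, the latter a protein of late endosomes, were higher, at 1.61 and 0.89, while Cd9 was not called (-0.02). In the MYC network 4 of 13 genes were higher and 7 lower, with a median of -0.18 that turned to 0.03 with the GC and length offsets. The MAX partners Mxi1 and Mxd4 were lower, at -1.52 and -0.88, and Mxd1 and Mga were higher, at 0.76 and 0.80.

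By annotation class, 5008 of 14744 protein-coding genes were higher with Thr starvation and 5377 lower. Of 3026 processed pseudogenes, copies that can share reads with their parent genes, 743 were higher and 513 lower, and of 551 lincRNAs 102 were higher and 124 lower.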
